A study of Mus musculus with 20 samples.

Results

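Renal carriers of sugars, phosphate, protons and monocarboxylates were followed by their RNA in kidneys of mice after ischemia and reperfusion injury (IRI), with and without 2 prior protective treatments. Their genes were chosen by name: every gene name on the array that starts with Slc2a, Slc5a, Slc9a, Slc16a, Slc17a, Slc20a or Slc34a and a number, control spots left out. This gave 62 of the 27827 gene names, read by 100 probes, of which 14 names belong to Slc16a, 13 to Slc5a, 11 to Slc2a, 11 to Slc9a, 8 to Slc17a, 3 to Slc34a and 2 to Slc20a. The Slc9a names include 2 that are no carriers, Slc9a3r1 and Slc9a3r2, the scaffold proteins NHERF1 and NHERF2. The array also carries Slc17a9 under an older name outside the rule, and Slc9a10 is now named Slc9c1.

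Kidney RNA of male C57BL/6 mice aged 8 to 12 weeks was labelled with a single dye and hybridised to arrays of the whole mouse genome, 4 for each of 5 groups. Control mice had no surgery, and IRI mice had both renal pedicles clamped for 45 min and were killed after 6 h of reperfusion. IRI+Hemin mice received 25 mg/kg Hemin, an inducer of heme oxygenase, by intraperitoneal injection 24 h before the same ischemia, and Hemin mice received it without surgery. IPC+IRI mice had ischemic preconditioning, a shorter ischemia of 15 min, 7 days before the ischemia of 45 min. No group had sham surgery, so clamping and the operation around it cannot be told apart in the comparisons with Control.

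The tubule recovers the sugars and phosphate that the glomerulus filters with carriers of the brush border that use the sodium gradient (Slc5a, Slc34a), while facilitative carriers (Slc2a) let sugars leave the cell towards the blood. Sodium-proton exchangers (Slc9a) recover sodium and bicarbonate and set the pH of cells and organelles, and monocarboxylate carriers (Slc16a, and the sodium-coupled Slc5a8 and Slc5a12) move lactate, pyruvate and ketone bodies. The type III phosphate carriers Slc20a1 and Slc20a2 supply phosphate to nearly every cell type, and the Slc17a family holds organic anion, urate and vesicular glutamate carriers.

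Levels are given as log2 signal, the log2 of the processed intensity over the 75th percentile of the same array, so that 0 lies at that percentile. A change was called at an adjusted p below 0.05 in a limma fit over all genes, and a gene was tested where either group had 3 or more of its 4 arrays well above background, a flag of the scanner software. Of the 62 genes, 49 were well above background on all 20 arrays, 9 on some and 4 on none (Slc5a4a, Slc5a5, Slc5a7 and Slc9a10). Slc17a7 and Slc9a9, each well above background on few arrays, were likewise tested in no comparison, and 51 genes were tested in all 5. Of the 56 genes tested in at least 1, 45 were called in at least 1 comparison and 11 in none.

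Since no slide holds arrays of more than 1 group, an effect of the slide cannot be told apart from any difference reported here, and the slides of Control and IRI were scanned on 1 day, that of IRI+Hemin on another and those of IPC+IRI and Hemin on yet another, so that IRI vs Control is the only comparison within a scan day. The medians of the 75th percentile were 199.7 and 198.8 intensity units in Control and IRI and 283.2, 254.3 and 273.3 in IRI+Hemin, IPC+IRI and Hemin. The share of genes well above background ran from 57.4% to 67.4% over the arrays. Division by the 75th percentile set the zero of each comparison: without it the median change of all genes moved from -0.17 to -0.05 in IRI vs Control, from -0.09 to 0.35 in IPC+IRI vs Control, from 0.09 to 0.41 in IPC+IRI vs IRI, from 0.08 to 0.45 in IRI+Hemin vs IRI and from 0.06 to 0.62 in Hemin vs Control. The labels give 4 samples a group and nothing on separate cohorts, so p-values measure the spread between these samples. The 6 proximal tubule markers that were read (Lrp2, Cubn, Aqp1, Miox, Slc22a6 and Ggt1) were well above background on every array, with a summed log2 signal between 8.62 and 8.96 in Control, 8.21 and 8.81 in IRI, 8.37 and 8.81 in IRI+Hemin, 8.67 and 8.94 in IPC+IRI, and 8.75 and 8.94 in Hemin. In bulk RNA, fewer cells of a type and less RNA per cell cannot be told apart.

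After injury more of the carriers were called lower than higher. In IRI vs Control 8 of the 54 genes tested rose, where 17% of all genes tested did, and 19 fell, where 33.7% of all genes did, with a median log2 fold change of -0.32 against -0.17 over all genes. In IPC+IRI vs Control 7 of 56 rose and 25 fell, against 23.1% and 32.6% of all genes, with a median of -0.42 against -0.09. The shares that fell were 35.2% and 44.6%, the first close to that of all genes and the second above it. Without normalization between arrays the counts in IPC+IRI vs Control were 8 higher and 7 lower. Of the calls over all genes 75.2% were then higher, beside 53.3% of the carriers' calls.

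Against IRI, both treated groups had more calls downwards than upwards among the carriers, while over all genes there were more upwards. In IPC+IRI vs IRI 6 of 53 rose and 11 fell, against 26% and 17.7% of all genes, with a median of -0.17 against 0.09. In IRI+Hemin vs IRI 4 of 54 rose and 15 fell, against 26.1% and 18% of all genes, with a median of -0.22 against 0.08. The 2 comparisons share the IRI arrays. Without normalization between arrays the counts were 8 higher and 1 lower, and 8 higher and 2 lower. Of the calls over all genes 90.9% and 91.5% were then higher, beside 88.9% and 80% of the carriers' calls. In IPC+IRI vs IRI quantile normalization gave 4 higher and 13 lower, and the deposited log2 matrix gave as many higher as lower.

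The last group had Hemin without surgery. In Hemin vs Control 5 of 56 rose and 12 fell, against 18.4% and 17.5% of all genes, with a median of -0.07 against 0.06. The rises depended on the scaling and on single arrays: quantile normalization gave 2 higher and 16 lower, the 75th percentile over probes well above background on all arrays gave 0 higher and 15 lower, no normalization gave 20 higher and 2 lower (90.9% of the calls higher, beside 94.8% over all genes), and leaving out Control replicate 4 or Hemin replicate 4 left 0 higher. The interaction, which sets the Hemin effect under IRI against that without surgery, was positive in 5 of 56 genes and negative in 0, against 5.82% and 1.95% of all genes. At an unadjusted p below 0.05 it was negative in 12, and without IRI replicate 4 it was called negative in 5.

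Single calls depended on the processing too. Of the 117 called changes over these comparisons and the interaction, 44 lost their call and 11 turned in sign with normexp background correction, and 63 lost their call and 4 turned without normalization between arrays. The 17 calls that held under each alternative that gave them a value, fold cutoffs not counted, were 5 in IRI vs Control (Slc16a6, Slc16a13, Slc2a1, Slc2a12 and Slc5a12), 6 in IPC+IRI vs Control (Slc16a6, Slc16a9, Slc16a12, Slc17a2, Slc2a1 and Slc9a3r2), 2 for IPC+IRI against IRI (Slc16a7 and Slc9a3r1), 3 for IRI+Hemin against IRI (Slc16a13, Slc34a1 and Slc9a3r1) and that of Slc16a14 in Hemin vs Control. Of these, Slc34a1 had no value in the deposited log2 matrix and Slc17a2 none with the filter on all arrays. Each of the other calls was lost or turned under at least 1. Without normalization the calls lost in IPC+IRI vs Control include Slc34a3 (-0.40), Slc2a2 (-0.67), Slc2a13 (-0.40), Slc5a6 (-0.61), Slc5a12 (-0.21), Slc9a8 (-0.42), Slc16a4 (-0.03) and Slc16a13 (-0.25), and those against IRI include Slc2a2 (-0.67), Slc9a8 (-0.56) and Slc20a2 (-0.31) in IRI+Hemin and Slc5a6 (-0.46) and Slc9a3r2 (-0.51) in IPC+IRI.

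**Figure D1:**
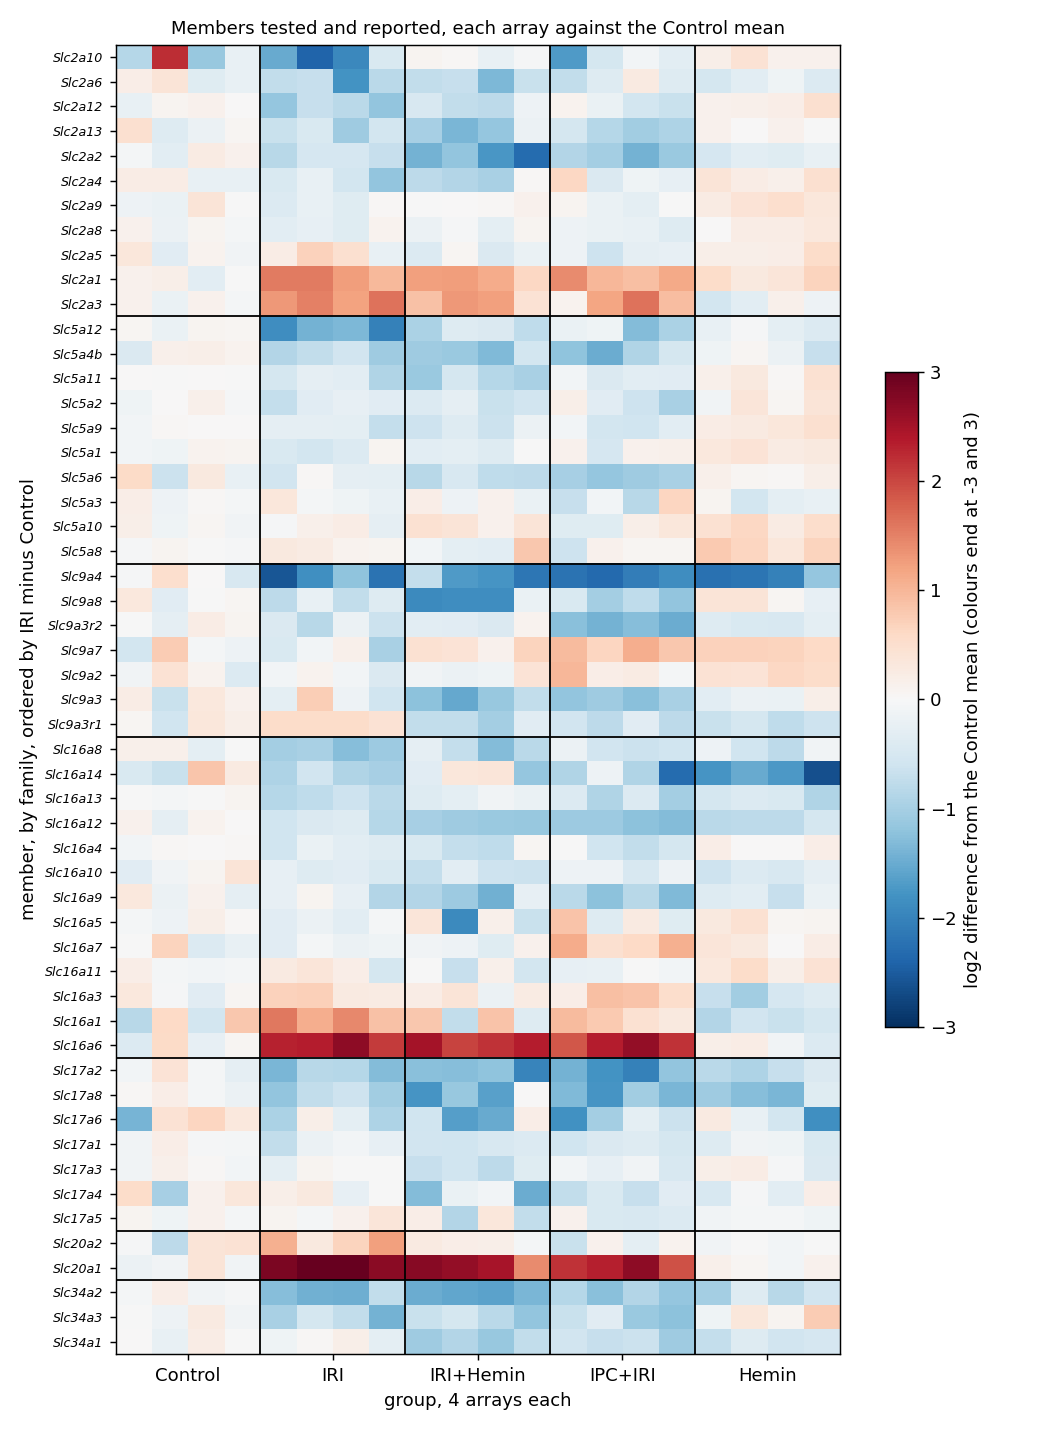
Each row is a gene tested in at least 1 comparison and reported here, each column an array, and the colour gives the log2 difference from the Control mean of that gene (colours end at -3 and 3). Slc20a1 and Slc16a6 are among the deepest red rows and stay red over IRI, IRI+Hemin and IPC+IRI, while Slc9a4 is blue in all 4 groups other than Control.

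**Figure D2:**
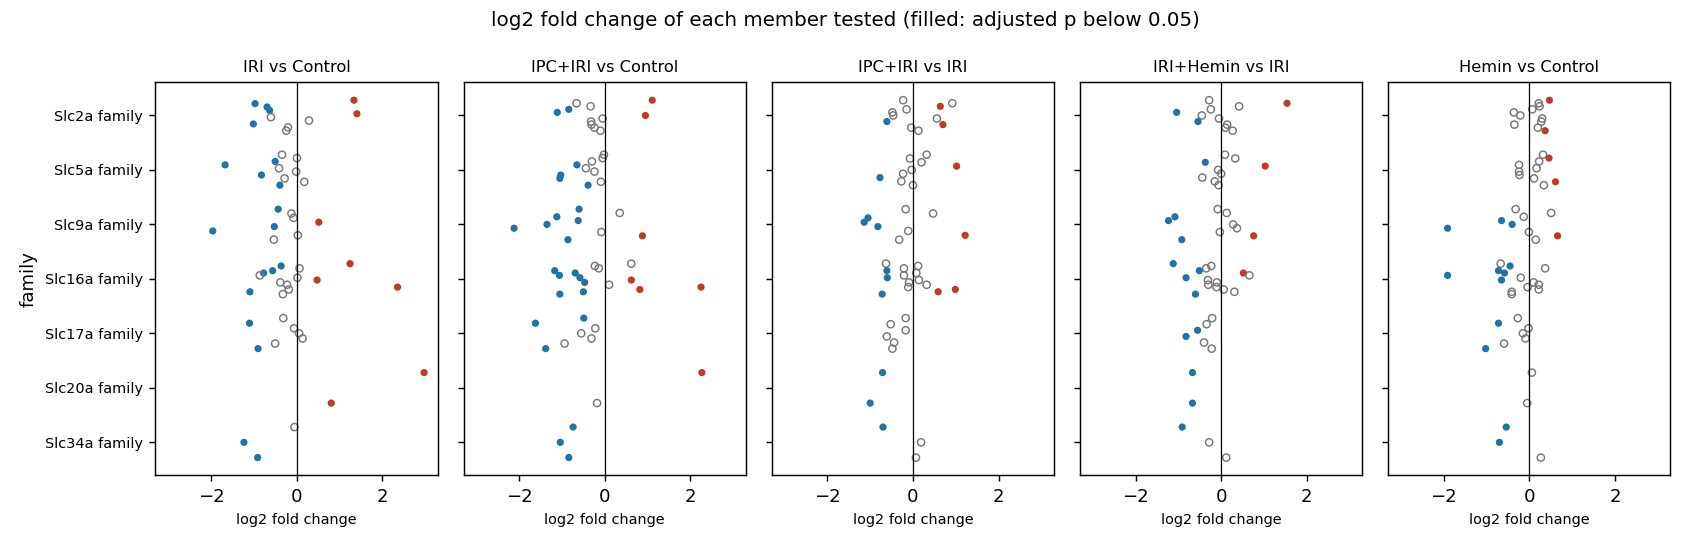
Each point is a gene's log2 fold change (x axis) in the comparison named above the panel, with families on the y axis and filled points for an adjusted p below 0.05 (red higher, blue lower). Both Slc20a genes are filled red in IRI vs Control, and no Slc17a, Slc34a or Slc5a gene is red in the 2 comparisons with Control after injury. Of all genes tested 17% were called higher in IRI vs Control and 23.1% in IPC+IRI vs Control.

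Of the type III phosphate carriers 2 of 2 rose in IRI vs Control and 1 of 2 in IPC+IRI vs Control, against 17% and 23.1% of all genes (median log2 fold changes 1.90 and 1.04), and of the 3 type II genes, which serve apical membranes, 2 fell in IRI vs Control and 3 in IPC+IRI vs Control, against 33.7% and 32.6% (medians -0.91 and -0.84). Slc20a1 (PiT-1) gave log2 signals of 1.03, 1.10, 1.59 and 1.09 in Control, 4.02, 4.45, 4.38 and 3.90 in IRI, 3.93, 3.85, 3.68 and 2.63 in IRI+Hemin, 3.36, 3.53, 3.89 and 3.12 in IPC+IRI, and 1.36, 1.26, 1.12 and 1.32 in Hemin. Every injured kidney lay above every kidney without ischemia, and Control and Hemin overlapped. The gene rose 7.91-fold in IRI vs Control (log2 fold change 2.98 ± 0.24 SE, adjusted p = 4.03e-08) and 4.83-fold in IPC+IRI vs Control (2.27 ± 0.24, adjusted p = 8.56e-07).

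Slc20a1 was lower than in IRI in both treated groups, by -0.71 ± 0.24 in IPC+IRI (adjusted p = 0.0218) and by -0.67 ± 0.24 in IRI+Hemin (adjusted p = 0.0301). The first call was lost without IRI replicate 2 or 3 or IPC+IRI replicate 1 or 4 (-0.85 to -0.59 over the 8 omissions of 1 array), and the second without IRI replicate 2 or 3 or IRI+Hemin replicate 4 (-0.80 to -0.37). Neither was called with normexp (-0.68 and -0.58) or with the mean of log2 values over probes (-0.37 and -0.20). The 2 probes of the gene disagreed. The probe at chr2:129037130-129037189 (mm9) rose by 3.19 in IRI vs Control, and the probe at chr2:129024609-129024668 differed by -0.51, both being well above background on every array. In the deposited log2 matrix the first probe is blank on 1 array, and with the second alone the gene was lower, by -0.70 in IRI vs Control (adjusted p = 0.0478) and by -0.58 in IPC+IRI vs Control (adjusted p = 0.0974).

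Slc20a2 (PiT-2), the other type III carrier, read -0.68, -1.44, -0.26 and -0.21 in Control, 0.41, -0.35, 0.02 and 0.58 in IRI, -0.38, -0.46, -0.48 and -0.70 in IRI+Hemin, -1.31, -0.53, -0.95 and -0.54 in IPC+IRI, and -0.76, -0.65, -0.72 and -0.66 in Hemin. IRI held the highest values and overlapped with Control, and both treated groups lay wholly below IRI. It rose in IRI vs Control (0.81 ± 0.24, adjusted p = 0.00986) and was lower than IRI in IPC+IRI (2.00-fold, -1 ± 0.24 on the log2 scale, adjusted p = 0.00329) and in IRI+Hemin (-0.67 ± 0.24, adjusted p = 0.0327). The last call was lost without IRI replicate 1 or 4 or IRI+Hemin replicate 2, 3 or 4 (-0.84 to -0.53). In IPC+IRI vs Control the difference was -0.18 (95% interval -0.70 to 0.34), and its 2 probes had the same sign in these 4 comparisons.

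**Figure D3:**
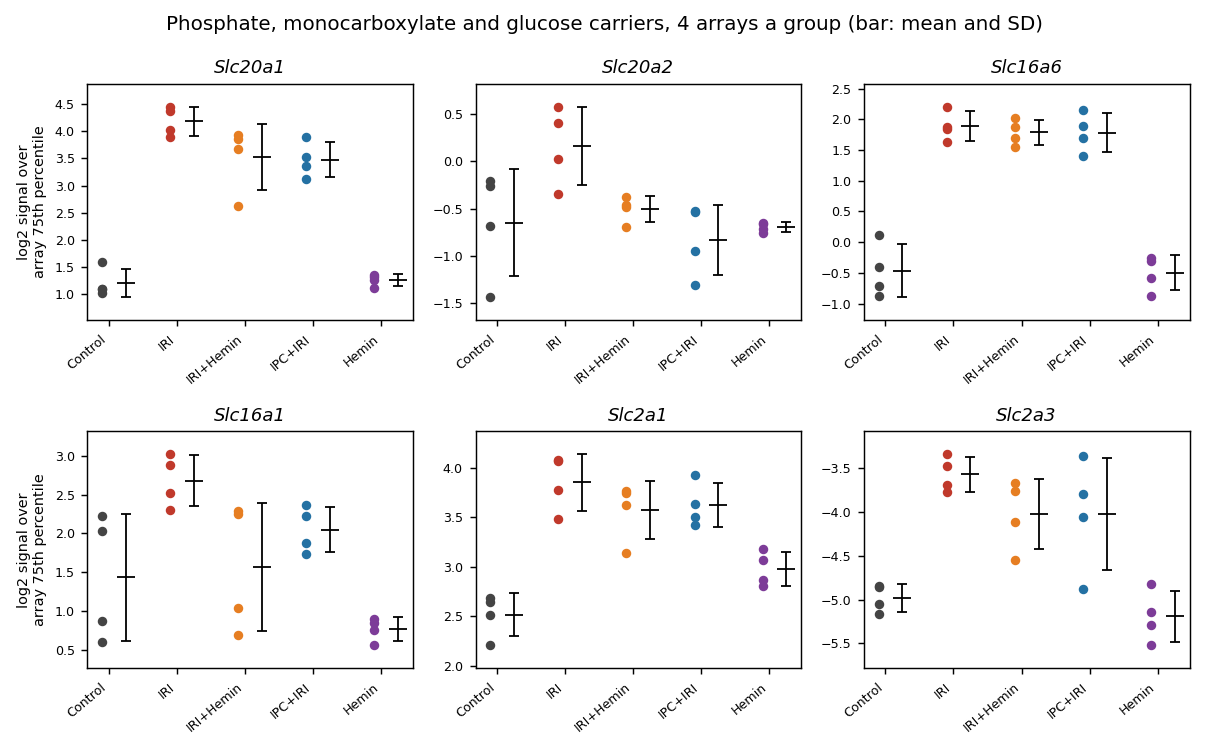
Each panel plots the log2 signal (y axis) of 1 gene on the 4 arrays of each group (points) with the mean and SD beside them. Slc20a1 and Slc16a6 are higher in all 12 injured kidneys than in the other 8, Slc2a1 in all but 1 IRI+Hemin kidney at 3.14, and the means of Slc20a2 and Slc16a1 are highest in IRI.

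Promoters are shown for the 4 genes called higher in IRI vs Control whose window held the letters ACGTG (Slc20a1, Slc2a1, Slc16a1 and Slc16a3) and for the brush border phosphate carrier Slc34a1. RefSeq promoters (GRCm38.p6, 250 bases before to 50 after a start, read along the gene's strand) were matched for 45 of the 62 genes, 52 windows in all. Capitals mark ACGTG, a core of the hypoxia response element, on either strand, and in Slc34a1 GTTAAT, a core of the site of the tubule factor HNF1, on either strand. CACGTG counts on both strands, and other forms of these sites were not searched.
Slc20a1, chr2:129198523-129198822, plus strand: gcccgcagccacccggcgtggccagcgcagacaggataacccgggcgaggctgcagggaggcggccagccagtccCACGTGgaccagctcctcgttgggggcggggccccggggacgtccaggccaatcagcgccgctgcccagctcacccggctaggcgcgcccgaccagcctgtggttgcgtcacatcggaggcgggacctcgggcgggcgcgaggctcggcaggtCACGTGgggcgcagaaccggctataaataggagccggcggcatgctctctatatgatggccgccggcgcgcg
Slc2a1, chr4:119108495-119108794, plus strand: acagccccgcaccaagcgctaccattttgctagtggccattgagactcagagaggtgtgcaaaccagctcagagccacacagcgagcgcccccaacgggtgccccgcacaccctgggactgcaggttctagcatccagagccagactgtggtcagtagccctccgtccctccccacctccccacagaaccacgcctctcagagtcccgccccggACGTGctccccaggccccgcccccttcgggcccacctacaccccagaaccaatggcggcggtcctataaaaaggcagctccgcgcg
Slc16a1, chr3:104638414-104638713, plus strand: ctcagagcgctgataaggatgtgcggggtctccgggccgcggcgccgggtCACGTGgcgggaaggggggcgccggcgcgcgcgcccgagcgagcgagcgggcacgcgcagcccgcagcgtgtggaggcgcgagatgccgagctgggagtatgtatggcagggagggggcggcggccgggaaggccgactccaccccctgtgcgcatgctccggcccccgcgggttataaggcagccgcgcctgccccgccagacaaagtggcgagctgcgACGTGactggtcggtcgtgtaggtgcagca
Slc16a3, chr11:120948817-120949116, plus strand: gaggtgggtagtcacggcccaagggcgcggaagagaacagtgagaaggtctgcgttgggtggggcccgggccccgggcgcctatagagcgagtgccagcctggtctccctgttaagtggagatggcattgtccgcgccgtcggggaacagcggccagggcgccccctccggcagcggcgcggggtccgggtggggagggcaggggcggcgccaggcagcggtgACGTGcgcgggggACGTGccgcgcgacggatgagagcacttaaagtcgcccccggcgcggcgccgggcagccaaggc
Slc34a1, chr13:55399398-55399697, plus strand: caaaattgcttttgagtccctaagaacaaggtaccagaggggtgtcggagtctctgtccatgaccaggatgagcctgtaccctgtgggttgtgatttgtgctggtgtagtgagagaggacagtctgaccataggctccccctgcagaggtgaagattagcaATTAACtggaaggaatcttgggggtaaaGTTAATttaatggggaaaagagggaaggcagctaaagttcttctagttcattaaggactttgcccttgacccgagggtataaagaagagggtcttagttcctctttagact
ACGTG occurred in 19.6% of all 32851 promoter windows and in 11 of the 52 windows of these families. It occurred in 4 of the 6 windows matched for 5 of the 8 genes that rose in IRI vs Control (Slc16a6, Slc20a2 and Slc2a3 had none) and in 3 of the 16 windows of genes that fell. TGACTCA, the site of AP-1, occurred in 5.2% of all windows and in 0 of those 6 windows, and GTTAAT in 7.1% of all windows and in 4 of the 52. The genes were chosen with their changes known, and a match describes letters in the window.

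Slc34a1 (NaPi-IIa), the main phosphate carrier of the proximal tubule, gave 7.54, 7.30, 7.73 and 7.50 in Control, 7.40, 7.56, 7.70 and 7.22 in IRI, 6.45, 6.64, 6.37 and 6.78 in IRI+Hemin, 6.94, 6.82, 6.88 and 6.46 in IPC+IRI, and 6.80, 7.13, 6.95 and 7.02 in Hemin. Control and IRI overlapped throughout, and every array of the other 3 groups lay below every array of these 2. It differed by -0.05 in IRI vs Control (95% interval -0.34 to 0.25) and fell in IPC+IRI vs Control (-0.74 ± 0.14, adjusted p = 0.00021), in that group against IRI (-0.70 ± 0.14, adjusted p = 0.000667), IRI+Hemin vs IRI (-0.91 ± 0.14, adjusted p = 7.1e-05) and Hemin vs Control (-0.54 ± 0.14, adjusted p = 0.00566). The low groups are those on the slides scanned on later days, the Hemin difference was 0.02 without normalization between arrays, that in IPC+IRI vs Control was then -0.30 and not called, and IPC+IRI vs IRI gave -0.36 and no call with normexp (adjusted p = 0.143). The part of slide and scan day in these differences was not tested.

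Slc34a3 (NaPi-IIc), the other phosphate carrier of the proximal brush border, read 4.66, 4.53, 4.96 and 4.58 in Control, 3.71, 4.16, 3.94 and 3.27 in IRI, 4.02, 4.15, 3.88 and 3.51 in IRI+Hemin, 4.02, 4.34, 3.56 and 3.45 in IPC+IRI, and 4.56, 5.03, 4.77 and 5.44 in Hemin. The 12 injured kidneys lay below all 8 kidneys without ischemia, and the injured groups overlapped with each other. The gene fell in IRI vs Control (-0.91 ± 0.23, adjusted p = 0.0031) and in IPC+IRI vs Control (-0.84 ± 0.23, adjusted p = 0.00484), and differed from IRI by 0.07 in IPC+IRI (95% interval -0.42 to 0.56) and by 0.12 in IRI+Hemin (-0.37 to 0.61).

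Slc34a2 (NaPi-IIb), best known from intestine and lung, fell in IRI vs Control (-1.23 ± 0.16, adjusted p = 8.05e-06; -0.27 and not called with normexp), in IPC+IRI vs Control (-1.04 ± 0.16, adjusted p = 3.88e-05) and in Hemin vs Control (-0.70 ± 0.16, adjusted p = 0.00286). Control had a mean of -2.05 ± 0.14 (SD, n = 4) and Hemin of -2.75 ± 0.28, above IRI at -3.28 ± 0.33, IPC+IRI at -3.09 ± 0.19 and IRI+Hemin at -3.56 ± 0.10. In IRI vs Control the probe at chr5:53460987-53461046 (mm9), well above background on all arrays, differed by -1.78. The probe at chr5:53462121-53462180 was well above background on 2 of the 4 Control and 3 of the 4 IRI arrays and did not fall with it.

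**Figure D4:**
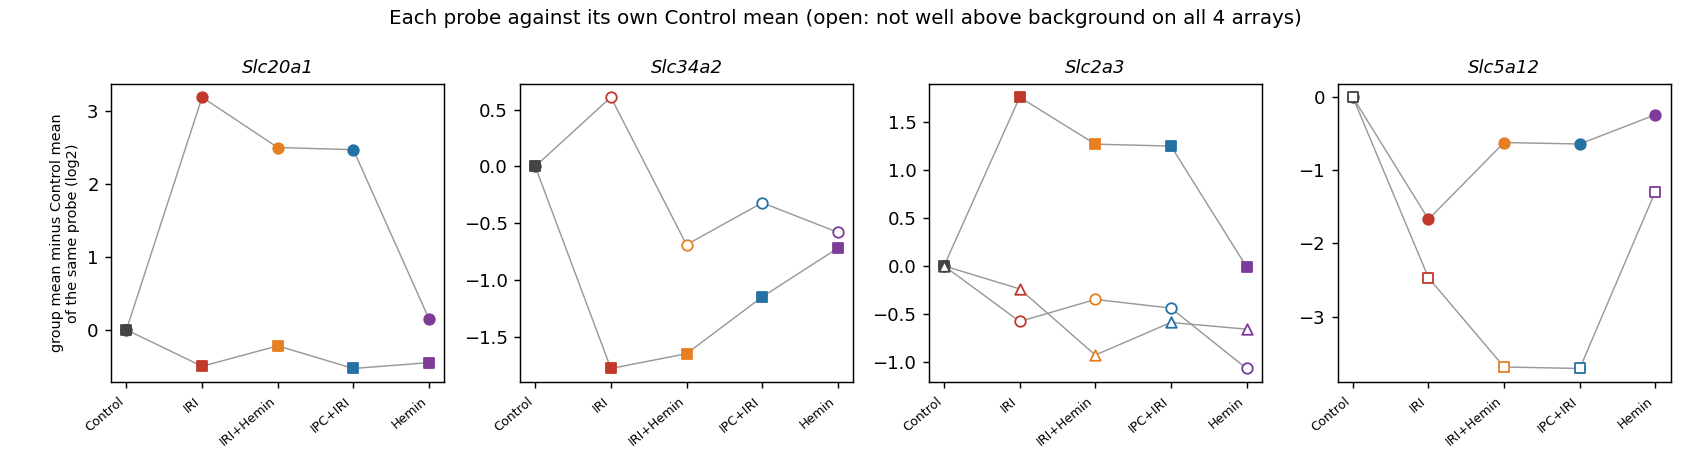
For 4 genes, each line is a probe and each point its group mean minus its own Control mean (log2, y axis), with groups on the x axis and open points where the probe was not well above background on all 4 arrays. The probes of Slc20a1 part in IRI, at 3.19 against -0.51, and of those of Slc34a2 the one at -1.78 in IRI was well above background on all arrays and the other, with open points, was not.

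Slc9a3 (NHE3), the main sodium-proton exchanger of the proximal brush border, read 2.08, 1.19, 2.17 and 1.98 in Control, 1.57, 2.59, 1.71 and 1.25 in IRI, 0.63, 0.33, 0.71 and 1.12 in IRI+Hemin, 0.68, 0.78, 0.59 and 0.89 in IPC+IRI, and 1.54, 1.67, 1.66 and 2.04 in Hemin. All 8 values of IRI+Hemin and IPC+IRI lay below every Control, IRI and Hemin array, and the latter 3 groups overlapped. It differed by -0.07 in IRI vs Control (95% interval -0.61 to 0.46) and fell by 2.18-fold in IPC+IRI vs Control (adjusted p = 0.00109), 2.07-fold in IPC+IRI vs IRI (adjusted p = 0.0029) and 2.12-fold in IRI+Hemin vs IRI (adjusted p = 0.00224). Without normalization between arrays these were -0.69, -0.73 and -0.72 on the log2 scale and none was called. In Hemin vs Control it differed by -0.13 (95% interval -0.67 to 0.41).

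Slc9a3r1 (NHERF1), a scaffold that holds NHE3 and NaPi-IIa at the brush border, was called higher in IRI vs Control and lower in IPC+IRI vs Control, which share the Control arrays. It gave 3.80, 3.14, 4.08 and 3.91 in Control, 4.29, 4.28, 4.28 and 4.17 in IRI, 2.99, 2.99, 2.71 and 3.40 in IRI+Hemin, 3.16, 2.95, 3.40 and 2.95 in IPC+IRI, and 3.06, 3.20, 2.97 and 3.12 in Hemin. IRI lay above all other groups, and the 3 lower groups overlapped with each other and with Control replicate 2. It rose in IRI vs Control (0.52 ± 0.17, adjusted p = 0.0185; 0.32 and not called without Control replicate 2) and fell in IPC+IRI vs Control (-0.62 ± 0.17, adjusted p = 0.00574), IPC+IRI vs IRI (-1.14 ± 0.17, adjusted p = 8.29e-05), IRI+Hemin vs IRI (-1.23 ± 0.17, adjusted p = 4.13e-05) and Hemin vs Control (-0.65 ± 0.17, adjusted p = 0.00801). The rise in IRI vs Control was also lost with normexp (0.36), without normalization (0.64), with quantile normalization (0.41) and in the deposited log2 matrix (0.33). The fall in IPC+IRI vs Control was lost with normexp (-0.42) and without normalization (-0.18), and that in Hemin vs Control without normalization (-0.08).

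Slc9a3r2 (NHERF2), its relative, read 1.28, 1.03, 1.51 and 1.37 in Control, 0.87, 0.47, 1.11 and 0.65 in IRI, 0.97, 0.96, 0.87 and 1.40 in IRI+Hemin, 0.05, -0.11, 0.03 and -0.18 in IPC+IRI, and 0.91, 0.83, 0.82 and 1.01 in Hemin. IPC+IRI lay below every other array, and IRI and IRI+Hemin overlapped with each other. It fell in IPC+IRI vs Control (-1.35 ± 0.14, adjusted p = 1.04e-06), in IPC+IRI vs IRI (-0.82 ± 0.14, adjusted p = 0.000248), in IRI vs Control (-0.52 ± 0.14, adjusted p = 0.00561) and in Hemin vs Control (-0.40 ± 0.14, adjusted p = 0.0356), the last at 0.16 without normalization between arrays and lost on leaving out any array but Control replicate 2 or Hemin replicate 4 (-0.49 to -0.33).

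**Figure D5:**
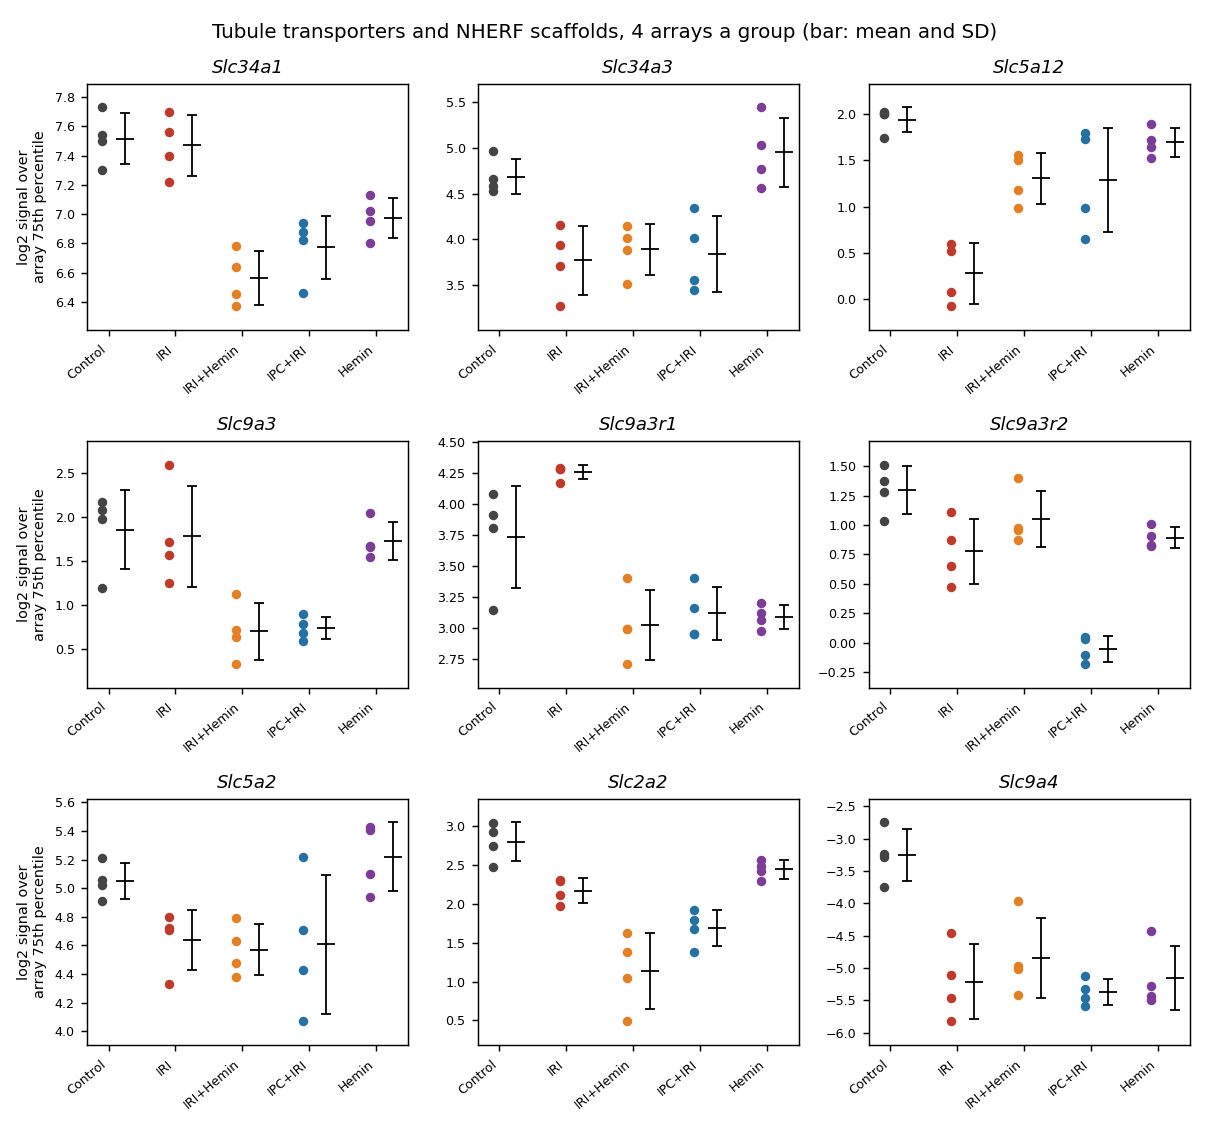
Each panel plots the log2 signal (y axis) of 1 tubule gene on the 4 arrays of each group (points), with the mean and SD beside them. Slc34a1, Slc9a3 and Slc9a3r1 are low in IRI+Hemin and IPC+IRI, Slc9a3r2 is lowest in IPC+IRI, and Slc5a12 is lowest in IRI.

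Among the other exchangers, Slc9a4 (NHE4), a basolateral exchanger of the thick ascending limb, read -3.28, -2.75, -3.23 and -3.74 in Control, -5.82, -5.10, -4.45 and -5.46 in IRI, -3.96, -4.96, -5.02 and -5.41 in IRI+Hemin, -5.46, -5.59, -5.32 and -5.12 in IPC+IRI, and -5.50, -5.43, -5.27 and -4.42 in Hemin. It was well above background on all 4 Control arrays, on 3 of IRI+Hemin, on 1 each of IPC+IRI and Hemin and on none of IRI, and no array of the other groups reached the Control range. It was called lower in IRI vs Control (adjusted p = 8.57e-05), in IPC+IRI vs Control (adjusted p = 3.38e-05) and in Hemin vs Control (adjusted p = 0.000385). All 3 were tested only through Control, where the gene was high, and few arrays of the other side were well above background, so no fold is given. With normexp none of the 3 was called, and the differences were -0.03 (adjusted p = 0.962), -0.57 (0.0677) and -0.65 (0.0555). Umod and Slc12a1, markers of the thick ascending limb, were called in 0 of the 5 comparisons, with a summed log2 signal of 7.54 to 7.87 in Control, 7.51 to 7.94 in IRI, 7.67 to 8.46 in IRI+Hemin, 7.63 to 8.12 in IPC+IRI and 7.55 to 7.78 in Hemin.

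Slc9a8 (NHE8), found in the tubule and the Golgi, fell in IPC+IRI vs Control (-0.86 ± 0.30, adjusted p = 0.0234) and in IRI+Hemin vs IRI (-0.92 ± 0.30, adjusted p = 0.0207), where 3 IRI+Hemin arrays read 0.14, 0.19 and 0.19 and the other 1.85. The first call was lost without Control replicate 1 or IPC+IRI replicate 2 or 4 (-0.99 to -0.75), and the second without IRI replicate 2 or IRI+Hemin replicate 1, 2 or 3 (-1.34 to -0.77). Slc9a7 (NHE7), an exchanger of the Golgi network, was well above background on none of the Control and IRI arrays and on all 12 others. Its means of -4.85 ± 0.20 (SD, n = 4) in IPC+IRI, -5.31 ± 0.22 in IRI+Hemin and -5.07 ± 0.05 in Hemin stood against -5.73 ± 0.54 in Control and -6.07 ± 0.49 in IRI. It was tested in 4 comparisons only through the higher group, so no fold is given for its 4 calls, and normexp background correction turned all 4 signs (-0.16 and -0.40 for IPC+IRI against Control and against IRI, -0.51 for IRI+Hemin against IRI and -0.33 for Hemin). The call was lost without IRI replicate 4 in IRI+Hemin vs IRI, and without any array but Control replicate 2 in Hemin vs Control. Slc9a2 was tested in all 5 comparisons and called in none. Its 2 probes, both well above background on every array, differed by 0.37 and -0.85 in IPC+IRI vs Control.

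Sugar carriers of the facilitative family held both directions after injury, with 2 of 10 genes called higher and 4 lower in IRI vs Control, against 17% and 33.7% of all genes. Slc2a1 (GLUT1), the carrier of basal glucose uptake, read 2.65, 2.69, 2.21 and 2.51 in Control, 4.08, 4.07, 3.78 and 3.48 in IRI, 3.75, 3.77, 3.63 and 3.14 in IRI+Hemin, 3.93, 3.50, 3.42 and 3.64 in IPC+IRI, and 3.07, 2.81, 2.87 and 3.18 in Hemin. All 12 injured kidneys but 1 of IRI+Hemin (3.14) lay above every Control and Hemin array, and the injured groups overlapped. It rose 2.53-fold in IRI vs Control (1.34 ± 0.17, adjusted p = 6.73e-06), 2.16-fold in IPC+IRI vs Control (1.11 ± 0.17, adjusted p = 3.81e-05) and 1.38-fold in Hemin vs Control (0.47 ± 0.17, adjusted p = 0.0395), the last lost without Control replicate 3 or 4 or Hemin replicate 1, 3 or 4 (0.37 to 0.53). It is read by the probe at chr4:118809864-118809923 (mm9).

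Slc2a3 (GLUT3), a carrier of high affinity best known from neurons, read -4.86, -5.17, -4.84 and -5.05 in Control, -3.69, -3.47, -3.77 and -3.34 in IRI, -4.11, -3.67, -3.76 and -4.55 in IRI+Hemin, -4.88, -3.79, -3.36 and -4.06 in IPC+IRI, and -5.52, -5.29, -4.82 and -5.14 in Hemin. IRI lay above Control and Hemin on every array, and 1 IPC+IRI array lay within the Control range. It rose in IRI vs Control (1.41 ± 0.25, adjusted p = 0.000201; 0.41 and not called with normexp) and in IPC+IRI vs Control (0.95 ± 0.25, adjusted p = 0.00412; -0.10 with normexp background correction). Only 1 of its 3 probes, at chr6:122678075-122678134 (mm9), was well above background on any array, and that probe differed by 1.76 and 1.25. Another of the 3 lies at chr17:83853065-83853125, on another chromosome.

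Slc2a2 (GLUT2), the basolateral glucose carrier of the early proximal tubule, gave 2.75, 2.48, 3.05 and 2.93 in Control, 1.97, 2.31, 2.29 and 2.12 in IRI, 1.38, 1.63, 1.05 and 0.49 in IRI+Hemin, 1.92, 1.79, 1.38 and 1.68 in IPC+IRI, and 2.29, 2.49, 2.43 and 2.57 in Hemin. Control lay above all 12 injured kidneys, and IRI+Hemin and IPC+IRI lay below IRI without overlap. It fell in IRI vs Control (-0.63 ± 0.19, adjusted p = 0.0116), IPC+IRI vs Control (-1.11 ± 0.19, adjusted p = 0.00012) and IRI+Hemin vs IRI (-1.04 ± 0.19, adjusted p = 0.000426), and in IPC+IRI vs IRI the difference was -0.48 (adjusted p = 0.0516).

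Slc2a12 (GLUT12) read -0.38, -0.08, -0.03 and -0.15 in Control, -1.31, -0.86, -0.98 and -1.34 in IRI, -0.65, -0.90, -0.95 and -0.31 in IRI+Hemin, -0.06, -0.35, -0.72 and -0.83 in IPC+IRI, and -0.03, -0.01, 0.04 and 0.32 in Hemin. IRI was the lowest group, apart from Control and IPC+IRI. It fell 1.95-fold in IRI vs Control (adjusted p = 0.000224) and rose 1.56-fold in IPC+IRI vs IRI (adjusted p = 0.00761; 0.28 on the log2 scale and not called with normexp). Slc2a13, a proton-coupled myo-inositol carrier, fell in IRI vs Control (-0.69 ± 0.22, adjusted p = 0.0161; lost without Control replicate 1 or IRI replicate 3, -0.81 to -0.53) and in IPC+IRI vs Control (-0.84 ± 0.22, adjusted p = 0.00426), and Slc2a6 (GLUT6) fell in IRI vs Control (-1.01 ± 0.25, adjusted p = 0.00296; 0.00 with normexp background correction) and was higher in IPC+IRI vs IRI (0.70 ± 0.25, adjusted p = 0.0325; lost without IRI replicate 3 or IPC+IRI replicate 3, 0.44 to 0.84; -0.24 with normexp).

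Of the remaining sugar facilitators, Slc2a5 (GLUT5), the fructose carrier, fell against IRI in IPC+IRI (-0.61 ± 0.19, adjusted p = 0.0141; -0.48 and lost without IRI replicate 2) and in IRI+Hemin (-0.54 ± 0.19, adjusted p = 0.026; lost without IRI replicate 2 or 3 or IRI+Hemin replicate 1 or 3, -0.72 to -0.41). Slc2a9 (GLUT9), a urate carrier, rose in Hemin vs Control (0.37 ± 0.13, adjusted p = 0.0323), but was lost without any array but Control replicate 3 or Hemin replicate 1 (0.30 to 0.50) and read -0.05 with normexp background correction and -0.16 in the deposited log2 matrix. Slc2a10 (GLUT10) was well above background on 1 IRI array and 4 IRI+Hemin arrays and was called higher in IRI+Hemin vs IRI (adjusted p = 0.031), where it was tested only through the higher group. That call was lost without any array but IRI replicate 4 or IRI+Hemin replicate 3 and was of the other sign with normexp (-0.40). Slc2a4, the insulin-responsive GLUT4, and Slc2a8 were called in none.

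Sodium-coupled carriers of the Slc5a family were called lower in 4 of 10 genes in IRI vs Control and in 4 of 10 in IPC+IRI vs Control, near the 33.7% and 32.6% of all genes. They were called higher in 0 of 10 in either, against 17% and 23.1% of all genes. Slc5a12 (SMCT2), the low-affinity sodium-lactate carrier of the tubule, read 2.00, 1.74, 2.02 and 2.00 in Control, 0.07, 0.52, 0.59 and -0.08 in IRI, 0.98, 1.56, 1.5 and 1.18 in IRI+Hemin, 1.73, 1.80, 0.65 and 0.98 in IPC+IRI, and 1.72, 1.90, 1.64 and 1.53 in Hemin. IRI lay below every array of every other group. The gene fell 3.17-fold in IRI vs Control (-1.67 ± 0.22, adjusted p = 1.13e-05) and was higher than IRI in IPC+IRI (1.02 ± 0.22, adjusted p = 0.00155) and in IRI+Hemin (1.03 ± 0.22, adjusted p = 0.00135). In IPC+IRI vs Control it was still lower (-0.65 ± 0.22, adjusted p = 0.0197), a call lost without IPC+IRI replicate 3 or 4 (-0.82 to -0.44).

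Probes were averaged on the linear scale, so the values of Slc5a12 follow the brighter of its 2 probes, at chr2:110487726-110487785 (mm9), which differed by -1.66 in IRI vs Control and, against IRI, by 1.03 in IPC+IRI and by 1.04 in IRI+Hemin. The other probe, at chr2:110439964-110440023, was well above background on 3 Control, 1 IRI and 3 Hemin arrays and on none of the other groups, and giving both probes equal weight on the log2 scale made the differences from IRI -0.10 and -0.09. Slc5a8 (SMCT1), the high-affinity partner in lactate uptake, differed by 0.18 in IRI vs Control (95% interval -0.27 to 0.62) and rose in Hemin vs Control (0.61 ± 0.21, adjusted p = 0.0286; lost without any array but Control replicate 2 or Hemin replicate 3, 0.55 to 0.70).

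Slc5a2 (SGLT2), the high-capacity glucose carrier, read 4.91, 5.06, 5.21 and 5.02 in Control, 4.33, 4.72, 4.80 and 4.71 in IRI, 4.63, 4.79, 4.38 and 4.48 in IRI+Hemin, 5.22, 4.71, 4.43 and 4.07 in IPC+IRI, and 4.94, 5.41, 5.10 and 5.43 in Hemin. Every IRI array lay below every Control array, yet the difference of -0.41 (95% interval -0.82 to 0.00, adjusted p = 0.0846) did not pass the test. Slc5a1 (SGLT1), the high-affinity carrier, differed by -0.34 in IRI vs Control (adjusted p = 0.0721) and by -0.02 in IPC+IRI vs Control (adjusted p = 0.919).

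Slc5a6, the multivitamin carrier, fell in IPC+IRI vs Control (-1.05 ± 0.19, adjusted p = 0.000211) and in IPC+IRI vs IRI (-0.77 ± 0.19, adjusted p = 0.00413), with the 4 IPC+IRI arrays between 0.37 and 0.56. Slc5a11 (SMIT2), a myo-inositol carrier, fell in IRI vs Control (-0.50 ± 0.15, adjusted p = 0.00847) and in IRI+Hemin vs IRI (-0.37 ± 0.15, adjusted p = 0.0499; lost without any array but IRI replicate 4 or IRI+Hemin replicate 2, -0.50 to -0.29). Slc5a9 (SGLT4) fell by -0.39 ± 0.14 in IRI vs Control (adjusted p = 0.0249; lost without IRI replicate 4, -0.28) and by the same size in IPC+IRI vs Control (adjusted p = 0.0217; lost without IPC+IRI replicate 2 or 3, -0.49 to -0.32; 0.05 without normalization). Slc5a10 (SGLT5) rose in Hemin vs Control (0.46 ± 0.16, adjusted p = 0.0284; lost without Control replicate 2 or 4 or Hemin replicate 1, 2 or 4, 0.41 to 0.53). Slc5a4b was well above background on 4 Control arrays but on 2 each of IRI and IPC+IRI, and was called lower in both comparisons with Control (adjusted p = 0.00422 and 0.000605), where it was tested only through Control. Normexp gave 0.15 and -0.35 with no call. Slc5a3 (SMIT1) was called in none. Its 2 probes, both well above background on every array, had opposite signs in each comparison, at 1.51 and -0.59 in IPC+IRI vs Control.

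Of the 14 monocarboxylate carriers, 3 were called higher and 4 lower in IRI vs Control, against 17% and 33.7% of all genes, and 3 higher and 7 lower in IPC+IRI vs Control, against 23.1% and 32.6%. Slc16a6 (MCT7), linked to the export of ketone bodies, read -0.87, 0.11, -0.71 and -0.40 in Control, 1.85, 1.88, 2.21 and 1.63 in IRI, 2.03, 1.55, 1.69 and 1.88 in IRI+Hemin, 1.40, 1.89, 2.16 and 1.69 in IPC+IRI, and -0.30, -0.25, -0.58 and -0.87 in Hemin. The 12 injured kidneys lay apart from the 8 others, and the 3 injured groups overlapped. It rose 5.12-fold in IRI vs Control (2.36 ± 0.21, adjusted p = 1.48e-07) and 4.76-fold in IPC+IRI vs Control (2.25 ± 0.21, adjusted p = 2.64e-07), and differed from IRI by -0.11 in either treated group (95% interval -0.55 to 0.34). Its 2 probes, at chr11:109314058-109314117 and chr11:109312371-109312429 (mm9), were both higher in IRI than in Control. The first differed by 2.36, and the second was well above background on 2 IRI and 0 Control arrays, so its size is not given.

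The lactate carriers were Slc16a1 (MCT1), Slc16a3 (MCT4) and Slc16a7 (MCT2). Slc16a1, the most widespread of them, read 0.60, 2.03, 0.87 and 2.23 in Control, 3.02, 2.52, 2.88 and 2.30 in IRI, 2.25, 0.69, 2.29 and 1.04 in IRI+Hemin, 2.37, 2.22, 1.88 and 1.73 in IPC+IRI, and 0.56, 0.85, 0.76 and 0.90 in Hemin. Control and IRI+Hemin were spread widely, and IRI lay above both. It rose in IRI vs Control (1.25 ± 0.37, adjusted p = 0.0091) and was lower in IRI+Hemin than in IRI (-1.12 ± 0.37, adjusted p = 0.0205), a call lost without IRI replicate 1 or 3 or IRI+Hemin replicate 2 or 4 (-1.36 to -0.82).

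Slc16a3, the lactate exporter of glycolytic cells, read -1.35, -1.68, -1.99 and -1.60 in Control, -0.97, -0.93, -1.39 and -1.41 in IRI, -1.44, -1.27, -1.83 and -1.41 in IRI+Hemin, -1.45, -0.75, -0.79 and -1.13 in IPC+IRI, and -2.34, -2.70, -2.15 and -2.04 in Hemin. Hemin was the lowest group, and both injured groups overlapped with Control. It rose in IPC+IRI vs Control (0.62 ± 0.19, adjusted p = 0.0103) and in IRI vs Control (0.48 ± 0.19, adjusted p = 0.0449; lost without Control replicate 2, 3 or 4 or IRI replicate 1 or 2, 0.37 to 0.58), and fell in Hemin vs Control (-0.65 ± 0.19, adjusted p = 0.0139; -0.52 and lost without Hemin replicate 2).

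Slc16a7, of high affinity for pyruvate and lactate, read 0.93, 1.61, 0.53 and 0.72 in Control, 0.61, 0.89, 0.76 and 0.82 in IRI, 0.85, 0.80, 0.59 and 1.08 in IRI+Hemin, 2.07, 1.42, 1.55 and 2.01 in IPC+IRI, and 1.32, 1.23, 0.97 and 1.17 in Hemin. IPC+IRI was the highest group, with 1 Control array within its range. It rose in IPC+IRI vs IRI (0.99 ± 0.19, adjusted p = 0.000626) and in IPC+IRI vs Control (0.82 ± 0.19, adjusted p = 0.0018), and differed by -0.18 in IRI vs Control (95% interval -0.59 to 0.24). Slc16a8 (MCT3), best known from the retina, was dim and fell in IRI vs Control (-1.09 ± 0.19, adjusted p = 0.000182; -0.07 and not called with normexp). It was lower in IPC+IRI vs Control (-0.50, adjusted p = 0.0361; lost without any array but Control replicate 3 or IPC+IRI replicate 1, -0.61 to -0.45) and higher in IPC+IRI vs IRI (0.59, adjusted p = 0.021; lost without IRI replicate 3 or IPC+IRI replicate 1, 0.48 to 0.64; -0.21 with normexp).

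Slc16a12 (MCT12), a creatine carrier, was called lower in all 5 comparisons: its values were 2.50, 2.10, 2.47 and 2.37 in Control, 1.77, 1.92, 1.98 and 1.51 in IRI, 1.36, 1.29, 1.24 and 1.23 in IRI+Hemin, 1.27, 1.28, 1.13 and 1.07 in IPC+IRI, and 1.54, 1.58, 1.58 and 1.84 in Hemin. Control lay above every other array, and both treated and injured groups lay below IRI. Its log2 fold changes were -0.56 ± 0.12 in IRI vs Control (adjusted p = 0.000622), -1.17 ± 0.12 in IPC+IRI vs Control (adjusted p = 4.99e-07), -0.61 ± 0.12 in IPC+IRI vs IRI (adjusted p = 0.000516), -0.51 ± 0.12 in IRI+Hemin vs IRI (adjusted p = 0.0018) and -0.72 ± 0.12 in Hemin vs Control (adjusted p = 0.000275). Without normalization between arrays 4 of the 5 calls were lost, at -0.44 for IRI and -0.16 for Hemin against Control and at -0.29 for IPC+IRI and -0.15 for IRI+Hemin against IRI, the last also with normexp (-0.22).

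Slc16a9 (MCT9), linked to carnitine, fell in IPC+IRI vs Control (-1.05 ± 0.23, adjusted p = 0.00106), and against IRI in IPC+IRI (-0.72, adjusted p = 0.0185; lost without IRI replicate 2 or IPC+IRI replicate 4, -0.91 to -0.59) and in IRI+Hemin (-0.60, adjusted p = 0.0462; lost without any array but IRI replicate 4 or IRI+Hemin replicate 4, -0.82 to -0.43). Slc16a10, an aromatic amino acid carrier, fell in IRI vs Control (-0.36 ± 0.14, adjusted p = 0.0419) and in Hemin vs Control (-0.45 ± 0.14, adjusted p = 0.0193; 0.12 without normalization). The first was lost without Control replicate 3 or 4 or IRI replicate 2, 3 or 4 (-0.47 to -0.23) and the second without Control replicate 3 or 4 or Hemin replicate 1 (-0.56 to -0.32). Slc16a4 fell in IPC+IRI vs Control (-0.47 ± 0.17, adjusted p = 0.0237; lost without IPC+IRI replicate 2, 3 or 4, -0.62 to -0.38), and Slc16a5 and Slc16a11 were called in none.

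Slc17a2, a carrier of the sodium-phosphate type I group, read -2.73, -2.25, -2.72 and -2.93 in Control, -4.04, -3.48, -3.52 and -3.96 in IRI, -3.92, -3.93, -3.86 and -4.64 in IRI+Hemin, -4.08, -4.46, -4.69 and -3.85 in IPC+IRI, and -3.47, -3.59, -3.34 and -3.09 in Hemin. Control lay above all other groups. It fell in IRI vs Control (-1.10 ± 0.21, adjusted p = 0.000397), IPC+IRI vs Control (-1.62 ± 0.21, adjusted p = 9.05e-06) and Hemin vs Control (-0.72 ± 0.21, adjusted p = 0.015). With normexp the first was -0.09 (adjusted p = 0.868) and the last -0.49, neither called, and the second -0.64 and still called (0.0232). Slc17a8, a vesicular glutamate carrier, fell in the same 3 comparisons (-0.90, -1.38 and -1.02, each ± 0.30, adjusted p = 0.0185, 0.000872 and 0.0143), the first lost without IRI replicate 1 (range -0.99 to -0.81). None of the 3 was called with normexp (-0.03, -0.56 and -0.59).

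Slc17a1 (NPT1), a urate and anion carrier of the proximal tubule, fell in IPC+IRI vs Control (-0.49 ± 0.13, adjusted p = 0.00449; -0.05 and not called without normalization), with means of 5.10 ± 0.14 (SD, n = 4) in Control and 4.61 ± 0.10 in IPC+IRI. Slc17a3 (NPT4) fell in IRI+Hemin vs IRI (-0.55 ± 0.14, adjusted p = 0.00517; -0.26 with normexp and -0.10 in the deposited log2 matrix, neither called), from 4.31 ± 0.17 to 3.75 ± 0.18, and differed by -0.06 in IRI vs Control. There its 2 probes, both well above background on every array, differed by -0.04 and -0.94. Slc17a4 fell in IRI+Hemin vs IRI (-0.82 ± 0.32, adjusted p = 0.047), a call lost without IRI replicate 1, 2 or 4 or IRI+Hemin replicate 1 or 4 (-1.05 to -0.58), and Slc17a5 (sialin, of the lysosome) and Slc17a6 were called in none.

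The effect of Hemin differed between kidneys with and without IRI for 5 of 56 genes by the interaction over 16 arrays, 8.93% against 5.82% of all genes, each with a positive value. Normexp left 1 of these calls (Slc16a13) and no normalization 1 (Slc9a4), and the mean of log2 values over probes gave 3 positive and 2 negative calls. Slc16a13 fell in Hemin vs Control (-0.58 ± 0.14, adjusted p = 0.00446; -0.01 and not called without normalization) and rose in IRI+Hemin vs IRI (0.52 ± 0.14, adjusted p = 0.00613), a difference of 1.10 ± 0.20 (adjusted p = 0.00246; 0.90 and not called without normalization, adjusted p = 0.228). It read 1.36, 1.33, 1.36 and 1.47 in Control, 0.85, 0.96, 0.92 and 0.48 in Hemin, 0.52, 0.62, 0.75 and 0.56 in IRI, 1.00, 1.08, 1.27 and 1.19 in IRI+Hemin, and 0.96, 0.47, 0.98 and 0.36 in IPC+IRI. Hemin lay below Control and IRI+Hemin above IRI, without overlap in either pair.

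Slc16a14, a member of the same family without an agreed substrate, fell 3.76-fold in Hemin vs Control (-1.91 ± 0.42, adjusted p = 0.00234) and differed by 0.66 in IRI+Hemin vs IRI (95% interval -0.24 to 1.56), with an interaction of 2.57 ± 0.60 (adjusted p = 0.0131; 1.05 and not called with normexp, adjusted p = 0.106). Its Control arrays spread from -2.38 to -0.89, and all 4 Hemin arrays, from -4.36 to -3.23, lay below them. It was also lower in IPC+IRI vs Control (-1.06, adjusted p = 0.0401), a call lost without Control replicate 3 or 4 or IPC+IRI replicate 1, 3 or 4 (-1.37 to -0.65). Slc5a12 had an interaction of 1.27 ± 0.32 (adjusted p = 0.0189), at 0.67 and not called with the mean over probes (adjusted p = 0.336). Slc9a4 was called as well, but it was well above background on 0 IRI arrays and 1 Hemin array, so no size is given. Slc9a3r2 had an interaction of 0.68 ± 0.20 (adjusted p = 0.0469), which was lost without any array but Control replicate 2, IRI replicate 3 or IRI+Hemin replicate 3 (0.57 to 0.79). The Hemin group and the IRI+Hemin group lie on different slides, so this difference cannot be told apart from slide.

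Proteins that work with these carriers were read from a list of 22, of which 20 were tested. In IRI vs Control 6 rose and 3 fell, against 17% and 33.7% of all genes, and in IPC+IRI vs Control 6 rose and 4 fell, against 23.1% and 32.6%. In IPC+IRI vs IRI 1 rose and 4 fell, against 26% and 17.7%, in IRI+Hemin vs IRI 3 rose and 5 fell, against 26.1% and 18%, and in Hemin vs Control 2 rose and 4 fell, against 18.4% and 17.5%. The list's medians lay between -0.07 and 0.04. Ezr (ezrin, which ties the NHERF scaffolds to actin) rose in IRI vs Control (1.47, adjusted p = 6.49e-09) and in IPC+IRI vs Control (1.49, adjusted p = 7.88e-09) and differed from IRI by 0.02 in IPC+IRI and 0.01 in IRI+Hemin. Bsg (basigin), the chaperone of MCT1 and MCT4, differed by 0.14 in IRI vs Control (adjusted p = 0.392) and fell in the other 4 comparisons (-0.82, -0.96, -0.90 and -0.67), while Emb (embigin), the chaperone of MCT2, rose in the same 4 (0.70, 0.67, 0.50 and 0.57). Bsg means were 3.3 and 3.44 in Control and IRI, scanned on 1 day, and 2.54, 2.47 and 2.63 in IRI+Hemin, IPC+IRI and Hemin, scanned on other days. Emb means were 0.16 and 0.19 against 0.69, 0.86 and 0.73. The part of slide and scan day was not tested, and the listed genes were not followed through the other ways of processing. Txnip, which lowers glucose uptake by GLUT1, rose in IRI vs Control (1.24, adjusted p = 1.61e-07) and in IPC+IRI vs Control (0.48, adjusted p = 0.00138). It fell against IRI in IPC+IRI (-0.76) and IRI+Hemin (-0.87), and in Hemin vs Control (-0.83, adjusted p = 8.95e-05).

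Markers of cell types other than the tubule moved with some comparisons, and their part in the carriers' changes was not tested. Of 6 leukocyte markers 3 were called higher (Lyz2, Itgam and Cd68) and 1 lower (Cd79a) in IPC+IRI vs Control, against 23.1% and 32.6% of all genes. Ptprc (0.65, adjusted p = 0.0674) and Cd3e (-0.11) were not called. Their summed log2 signal lay between 1.13 and 2.05 in Control and between 2.23 and 4.25 in IPC+IRI. It follows the brightest of them, Lyz2, with means of 1.18 and 3.22. Of the 5 tested in IPC+IRI vs IRI 2 were higher and 1 lower, against 26% and 17.7% of all genes. In IRI vs Control 1 of 5 was higher and 1 lower, against 17% and 33.7%. Of 3 endothelial markers 1 was higher and 1 lower in IRI vs Control (17% and 33.7% of all genes) and in IRI+Hemin vs IRI (26.1% and 18%). In IPC+IRI vs IRI 2 were lower, where 17.7% of all genes were. Of 3 podocyte markers 1 was lower in IRI vs Control and 2 in IPC+IRI vs Control, against 33.7% and 32.6% of all genes. Of the 6 proximal tubule markers 0 rose and 2 fell in IRI vs Control (Lrp2 by 0.95 and Cubn by 0.54 on the log2 scale), against 17% and 33.7% of all genes. In IPC+IRI vs Control 1 rose and 1 fell (23.1% and 32.6% of all genes), and in IPC+IRI vs IRI 2 rose and 1 fell (26% and 17.7%). In IRI+Hemin vs IRI 3 rose and 0 fell (26.1% and 18%), and in Hemin vs Control 1 rose and 0 fell (18.4% and 17.5%).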

How the data were processed

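The authors scanned Agilent 1-colour whole mouse genome arrays and deposited the scanner output of Feature Extraction 9.5.3.1 (version from the file headers), of which the processed signal, an intensity corrected for background by that software, was used. A series matrix of log2 values was also deposited by the authors: for probes with a single spot, 100% of its values equalled the processed signal after log2 to a tolerance of 0.001, and 18.1% of its cells are blank. Here control spots were left out, signals were scaled by the array's 75th percentile, spots of a probe and then probes of a gene were averaged on the linear scale, and the log2 was taken. Probe positions are those of the files (mm9). The methods name another test, and limma was used instead.

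Group means of all 20 arrays were fitted with limma 3.58.1 (R 4.3.3; 15 residual degrees of freedom) over every gene tested, with Benjamini-Hochberg adjustment within each comparison and a threshold of 0.05. A gene needed at most 1 missing value and 3 of 4 arrays well above background in either group. The interaction is the difference IRI+Hemin minus IRI less the difference Hemin minus Control. On data simulated for IRI vs Control (17711 genes, 200 changed by 1 on the log2 scale) the fit recovered 78% of the changed genes and made 14 calls outside them. The simulated noise was independent between genes and arrays, with no effect of slide or scan day. Far fewer genes were changed in it than were called in the real comparison. Depth has no meaning for arrays, and their number limits the precision.

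Named are, per comparison, up to 5 called genes in each direction, ranked by size of change and without overlap between groups, with a fixed list of kidney members and further members by family. The members and lists were chosen with earlier results of these data known. Alternatives were another background correction, normalization, filter, rule for probes, set of arrays, fold cutoff, the deposited log2 matrix, a replicate block, and leaving out each array. A few members are counted but not reported here by name.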

Additional observations from a re-analysis of the deposited data

Results flagged for a closer look

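In 8 of the 175 groups of 4 arrays examined (35 genes in 5 groups), a single array stood far from the other 3, where chance gives about 1 in 20. Slc20a1 read 1.59 in Control replicate 3 with its nearest neighbour at 1.10, and Slc5a12 read 1.74 in Control replicate 2 with its nearest at 2.00. Slc9a3r1 read 4.17 in IRI replicate 4 against 4.28, a gap that is large only beside the narrow range of that group. In IPC+IRI, Slc5a1 read -0.08 in replicate 2 against 0.54, and Slc5a8 read 3.02 in replicate 1 against 3.69. Slc17a2 read -4.64 in IRI+Hemin replicate 4 against -3.93, Slc16a12 read 1.84 in Hemin replicate 4 against 1.58, and Slc2a10 read -3.69 in Hemin replicate 2 against -3.95.

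The effect of Hemin differed between kidneys with and without IRI for 5 of 56 genes by the interaction in limma, each positive, as were 5.82% of all genes: Slc16a14 (2.57 on the log2 scale), Slc5a12 (1.27), Slc16a13 (1.10), Slc9a3r2 (0.68) and Slc9a4. The fitted value of Slc9a4, 2.28, is no measured size, since 0 IRI arrays and 1 Hemin array were well above background, and it was 0.14 with normexp (adjusted p = 0.968). Each of the 4 groups behind these values lies on its own slide, and the part of slide was not tested.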

How the results depend on the processing

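Of the 117 called changes, 17 kept their direction and their call under each alternative that gave them a value, fold cutoffs not counted (Slc34a1 in IRI+Hemin vs IRI had none in the deposited matrix and Slc17a2 in IPC+IRI vs Control none with the filter on all arrays), 95 lost the call under at least 1, 37 of them on leaving out 1 array, and 21 changed sign under at least 1. Those kept include Slc16a6 and Slc2a1 in both comparisons of injury with Control, Slc5a12 in IRI vs Control, and Slc9a3r1 in both comparisons with IRI. The cause of the changes below was not tested.

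Counts are given as genes called higher and lower, listing those that moved by over 1.5 times. With normexp background correction, IRI vs Control had 5 higher and 8 lower, IPC+IRI vs Control 4 higher, Hemin vs Control 2 higher and 5 lower, and the interaction 1 higher. Without normalization between arrays, IRI vs Control had 5 and 10, IPC+IRI vs Control 7 lower, IPC+IRI vs IRI 1 lower, IRI+Hemin vs IRI 8 and 2, Hemin vs Control 20 and 2, and the interaction 1 higher. In Hemin vs Control, quantile normalization gave 2 higher and the 75th percentile over probes well above background 0. With the deposited matrix, IRI vs Control had 4 higher and 24 lower, IPC+IRI vs IRI 9 and 9, and IRI+Hemin vs IRI 6 lower. With the mean of log2 values over probes, IPC+IRI vs Control had 4 higher, Hemin vs Control 3 higher, and the interaction 3 higher and 2 lower. Requiring all arrays well above background left 2 higher in IRI+Hemin vs IRI. A 2-fold cutoff left 5 and 6 in IRI vs Control, 3 and 12 in IPC+IRI vs Control, 2 and 2 in IPC+IRI vs IRI, 2 and 4 in IRI+Hemin vs IRI, and 0 and 3 in Hemin vs Control. Cutoffs of 3-fold upwards and 2-fold downwards, taken from the methods, left 2 and 6, 2 and 12, 0 and 2, 0 and 4, 0 and 3, and 2 higher for the interaction. They were used alike in every comparison, while the cutoffs of the study differed between comparisons.

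On leaving out 1 array, the higher counts ranged from 6 to 9 in IRI vs Control, 7 to 7 for IPC+IRI against Control, 4 to 8 against IRI, 3 to 6 for IRI+Hemin against IRI, 0 to 5 in Hemin vs Control and 4 to 6 for the interaction, and the lower counts from 17 to 21, 20 to 26, 8 to 14, 9 to 14, 10 to 14 and 0 to 5.

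Signs turned as follows. With normexp, Slc2a6 and Slc5a4b were 0.00 and 0.15 in IRI vs Control, Slc2a3 and Slc9a7 -0.10 and -0.16 in IPC+IRI vs Control, Slc16a8, Slc2a6 and Slc9a7 -0.21, -0.24 and -0.40 in IPC+IRI vs IRI, Slc2a10 and Slc9a7 -0.40 and -0.51 in IRI+Hemin vs IRI, and Slc2a9 and Slc9a7 -0.05 and -0.33 in Hemin vs Control. In the deposited matrix, where 1 probe of Slc20a1 is blank on 1 array and was left out, that gene was -0.70 for IRI and -0.58 for IPC+IRI against Control, and 0.12 for IPC+IRI and 0.49 for IRI+Hemin against IRI, and Slc2a9 was -0.16 in Hemin vs Control. The mean over probes gave Slc5a12 -0.10 in IPC+IRI vs IRI and -0.09 in IRI+Hemin vs IRI. Without normalization, Slc5a9 was 0.05 in IPC+IRI vs Control, and Slc16a10, Slc34a1 and Slc9a3r2 were 0.12, 0.02 and 0.16 in Hemin vs Control.

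With the replicate number as a block the counts were 7 and 20, 7 and 25, 6 and 11, 4 and 12, 4 and 13, and 5 and 0 for the interaction. Deviations of same-numbered arrays correlated at 0.05 to 0.15 in IRI vs Control over 14527 genes (3 of 4 pairs over 0.1) and at no more than 0.06 in the other 4 comparisons. No comparison had every pair over 0.1, so the number was not taken to pair the arrays. Fits with the slide or the scan day as a block were not run: each group has its own slide, and no group spans 2 scan days.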
